A study of Mus musculus with 6 samples.

Results

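Fibroblasts build the connective tissue of a tumor. They secrete fibrillar collagens and the proteoglycans decorin and lumican that coat collagen fibers, and they carry the PDGF receptor alpha. In a transplanted tumor these cells come from the host, whereas the cancer cells come from the injected line, so genes that mark the host are a direct way to tell them apart. Cancer lines of mesenchymal character can also transcribe collagen genes, so collagen alone does not separate the stroma from the tumor.

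The nuclei described here were chosen by counts of collagen and stromal genes in single-nucleus RNA sequencing of subcutaneous TC1 tumors. TC1 is a mouse lung tumor line. All hosts were MCT2 loxP/loxP; mCre-Tg mice, 8 weeks old and male, on a C57BL/6 background, with a Cre recombinase that tamoxifen switches on. The KO group received tamoxifen for 5 days, which deletes MCT2, a monocarboxylate transporter encoded by Slc16a7, and the CO group received vehicle without tamoxifen. TC1 cells were injected after this treatment and the tumors grew for 24 days. Each group had 3 libraries, named CO1 to CO3 and KO1 to KO3, and tamoxifen itself was given in the KO group only, so its effect and that of the deletion cannot be told apart. The methods of the study call the libraries of a group biological replicates.

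A nucleus was a member when Hmga2, Mecom and Slit2, genes that are high in the tumor nuclei, together made up less than 0.5% of its unique molecular identifiers (UMIs, the counted molecules), when it held at least 3 UMIs spread over at least 2 of the genes Pdgfra, Dcn, Lum, Col1a1, Col1a2 and Col3a1, and when it held fewer than 2 UMIs of 6 macrophage and endothelial genes. Of 18014 nuclei with 100 to 7500 genes and under 20% mitochondrial counts, 459 met the rule, which is 2.55%. CO1 to CO3 gave 99, 87 and 85 members and KO1 to KO3 gave 114, 30 and 44. The 10160 nuclei at or above the 0.5% limit are called tumor nuclei. The rule was meant to find host fibroblasts, but most members did not carry the marks of a host cell, as shown next, and they are therefore called collagen-gated nuclei.

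The members' summed depth ranged from 80998 UMIs in KO3 to 651584 in CO1. No barcode was a member in more than 1 library. Between 15 and 19 kept barcodes recurred in each of the 15 pairs of libraries. The libraries stood apart in the quality of their members. The median share of mitochondrial counts was 10.1%, 9.37% and 1.72% in CO1 to CO3 and 11.5%, 2.34% and 0.790% in KO1 to KO3. Median UMIs per member were 5263, 3862 and 1522 in CO and 3070, 2492 and 1104 in KO. Low and high values occurred in both groups, and the values for CO3, KO2 and KO3 are given beside each result that rests on them.

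The first question was whether the members were host cells. Ddx3y, Uty, Kdm5d and Eif2s3y lie on the Y chromosome and are transcribed in nearly all cells of a male animal, so a host nucleus should hold their transcripts. Macrophage-rule nuclei, chosen by Adgre1, Cadm1, Csf1r and Mrc1, served as a host class of the same libraries. There the 4 genes summed to 549, 446 and 501 CPM (counts scaled to a common total per sum) in CO1 to CO3 and to 498, 653 and 521 CPM in KO1 to KO3. Tumor nuclei held 18.9, 16.0 and 31.4 CPM in CO and 21.5, 17.1 and 45.0 CPM in KO. Every macrophage-rule value was above every tumor value, so the Y-linked genes separated host from tumor nuclei in all 6 libraries.

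Collagen-gated nuclei held 15.3, 19.7 and 184 CPM of the Y-linked genes in CO1 to CO3 and 28.8, 155 and 210 CPM in KO1 to KO3. In CO2 and KO1 these levels lay within the range of the tumor nuclei, and in CO1 just below it. In CO3, KO2 and KO3 they were higher than in any tumor sum and lower than in any macrophage-rule sum. Endothelial-rule nuclei, a class with only 55 nuclei and 2 to 14 Y-linked UMIs per library, held 186, 167 and 486 CPM in CO and 432, 146 and 311 CPM in KO. That range includes the members of CO3, KO2 and KO3. The class is a less certain host reference, because Flt1, a gene of its rule, was at 171 to 258 CPM in tumor nuclei. Its tumor line genes summed to 929, 967 and 547 CPM in CO and 216, 825 and 207 CPM in KO, against 348 to 465 CPM in macrophage-rule nuclei. Expressed as a percent of the macrophage-rule level of the same library, the collagen-gated nuclei reached 2.79%, 4.42% and 36.8% in CO and 5.78%, 23.7% and 40.3% in KO. These values rest on 10, 8 and 39 Y-linked UMIs in CO and on 12, 22 and 17 in KO.

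**Figure D1:**
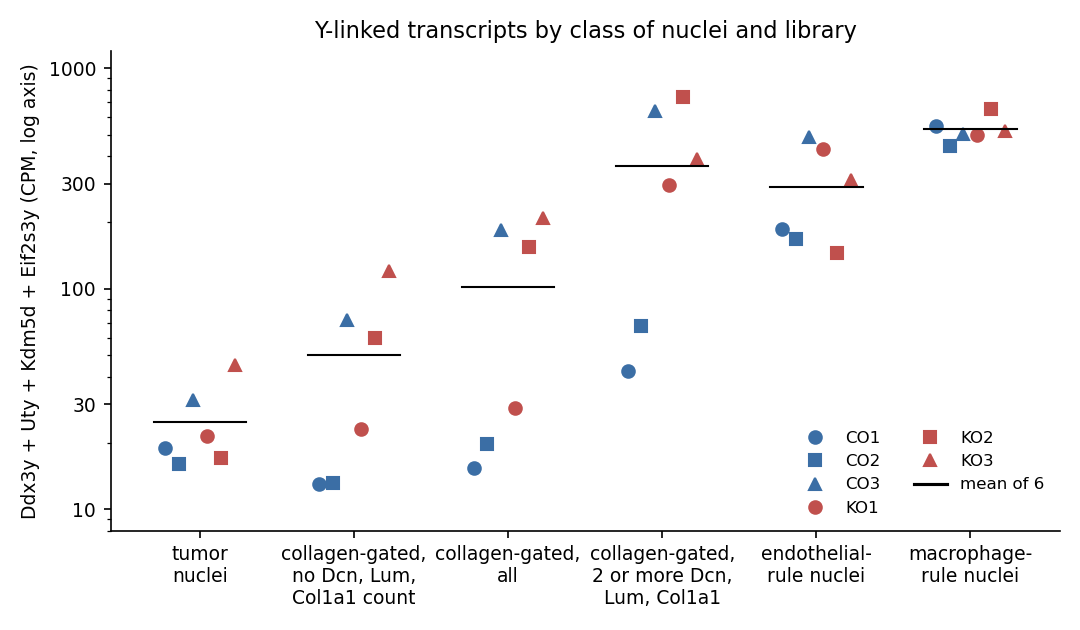
Summed Y-linked CPM (log axis) for each class of nuclei, with 1 point per library and a line at the mean of 6 libraries. Tumor nuclei lie between 16.0 and 45.0 CPM and macrophage-rule nuclei between 446 and 653 CPM, and the collagen-gated nuclei of CO1, CO2 and KO1 sit at 15.3 to 28.8 CPM, near the tumor nuclei.

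The gate itself admitted tumor nuclei. Without regard to the tumor genes, 6276 nuclei passed the collagen gate and the limit on macrophage and endothelial genes. They are called gate-passing nuclei, and 5817 of them were tumor nuclei. The collagen gate alone, without that limit, was passed by 70.5%, 74.3% and 79.5% of tumor nuclei in CO1 to CO3. In KO1 to KO3 it was passed by 62.5%, 68.9% and 36.7%. The lowest share belonged to KO3, the library with the fewest UMIs per tumor nucleus. In CO1, CO2 and KO1 the members crowded against the 0.5% limit. Of the 459 members, 150 (32.7%) had a tumor gene share of 0.4% to 0.5%, just inside the limit, and 180 gate-passing nuclei lay just outside it at 0.5% to 0.6%. The 150 were 48, 32 and 5 in CO1 to CO3 and 49, 7 and 9 in KO1 to KO3. In CO3 the members instead fell from 37 under 0.1% to 5 at 0.4% to 0.5%, and KO3 had 7 to 10 in each step of 0.1. At the other end, 49 members (10.7%) had a share under 0.05%, 24 of them from CO3. At the count limit, 98 members held exactly 3 gate UMIs and 222 nuclei missed it with 2.

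**Figure D2:**
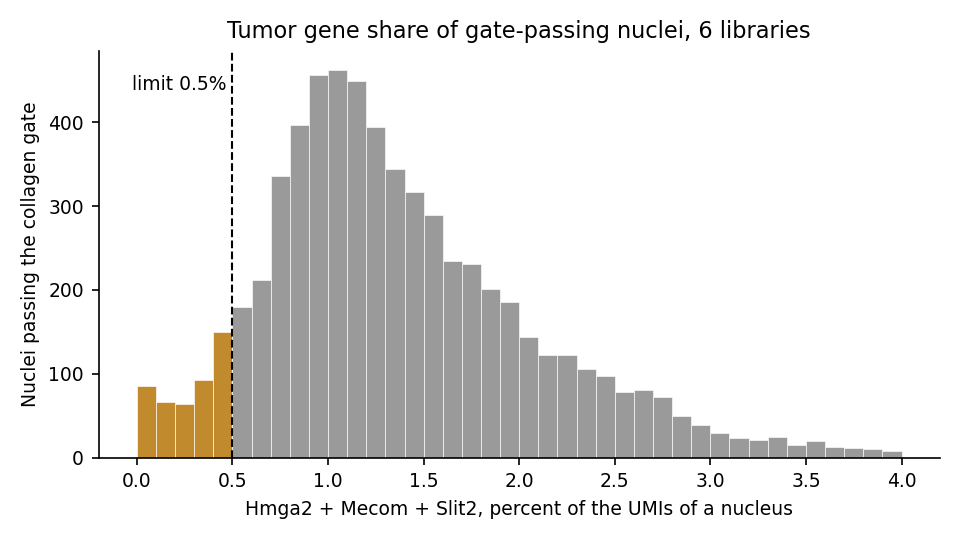
Number of gate-passing nuclei of all 6 libraries by the percent of UMIs from Hmga2, Mecom and Slit2, in steps of 0.1. The 459 members (gold) lie left of the 0.5% limit, where the pooled counts run into the lower flank of the tumor distribution, and the 35 nuclei above 4% are not drawn. In CO3 alone the member counts fall, from 37 under 0.1% to 5 at 0.4% to 0.5%.

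Among gate-passing nuclei, the Y-linked level was highest where the tumor gene share was lowest. Pooled over libraries, the Y-linked level was 398 CPM (95% Poisson interval 271 to 565, counting error only) in the 49 nuclei under 0.05%. It was 107 CPM at 0.05% to 0.15%, 79.2 CPM at 0.15% to 0.3%, and 27.4 CPM at 0.3% to 0.4%. In the 150 members at 0.4% to 0.5% it was 13.1 CPM (6.28 to 24.1), no higher than the 19.2 CPM (11.7 to 29.7) of the 180 nuclei just outside the limit. Without CO3, the lowest bin held 451 CPM in 25 nuclei, and the next bins held 62.9 CPM at 0.05% to 0.15% and 59.4 CPM at 0.15% to 0.3%. CO1 and KO1 had no Y-linked UMI in their 8 and 11 nuclei at 0.05% to 0.15%. KO3 did not fall steadily, with 132 CPM at 0.05% to 0.15%, 290 CPM at 0.15% to 0.3% and 228 CPM at 0.3% to 0.4%. These values rest on 2, 9 and 4 Y-linked UMIs.

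Y-linked genes mark any host cell, and the lowest bin also held genes of other host cell types. Its macrophage genes summed to 5579 CPM in KO1 and 5726 CPM in KO3, which is near the level of macrophage-rule nuclei (5703 to 6722 CPM), and to 245 to 974 CPM in the other 4 libraries. The bin held only 9 nuclei with 55 macrophage gene UMIs in KO1 and 3 nuclei with 31 in KO3. Its skeletal muscle genes summed to 3343 CPM in CO3 and gave no UMI in the other 5 libraries.

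The fixed list of 22 resident fibroblast genes fell less than the Y-linked genes, from 3237 CPM in the lowest bin to 950 CPM in the highest bin of members. Cd34 (116 and 114 CPM) and Gsn (321 and 271 CPM) differed little between these bins, and Igfbp6 was lower in the lowest bin (103 and 224 CPM). Dcn, Lum and Col1a1 together were at 1272 CPM in the lowest bin and 79.9 CPM in the highest. They are gate genes, and the gate of 3 UMIs asks for a higher level in a shallow nucleus, while median UMIs per nucleus were 1139 in the lowest bin and 3994 in the highest. The sum of Fbn1 (fibrillin, a microfibril protein), Lama2 (a basement membrane laminin), Abca8a, Col14a1 and Adam12 was 2132 CPM in the lowest and 43.2 CPM in the highest. This set was put together after values had been seen, and it fell more than the fixed list. The median mitochondrial share moved in the opposite direction, from 1.05% to 10.5%, and its part in the result was not tested. The bins use the rule's own measure and these genes come from the same nuclei, so the order is a description and carries no test.

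**Figure D3:**
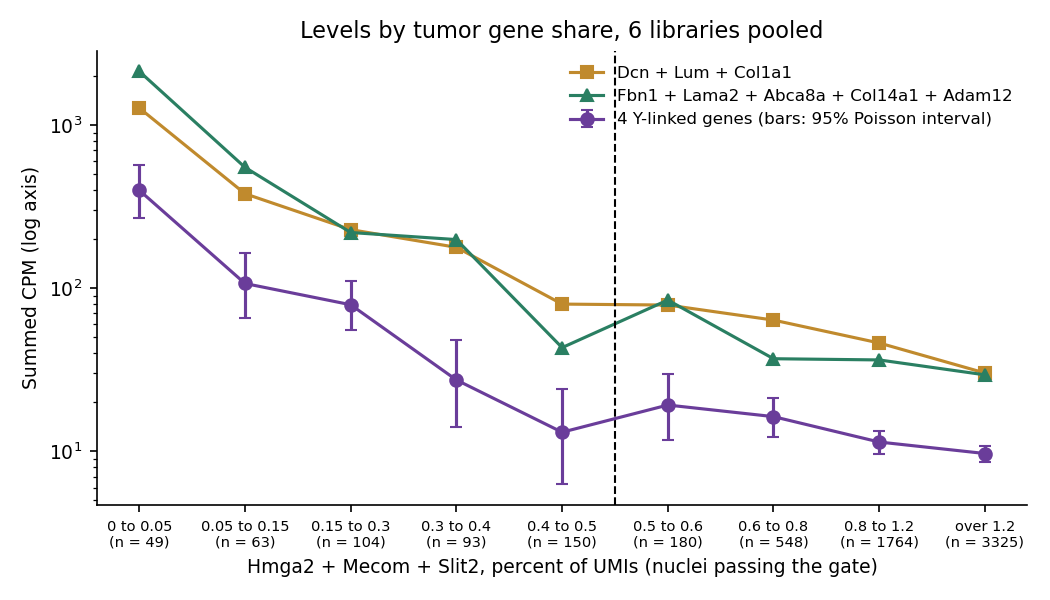
Summed CPM (log axis) of the Y-linked genes, of Dcn, Lum and Col1a1, and of 5 further matrix genes in gate-passing nuclei binned by tumor gene share, pooled over 6 libraries, with the dashed line at the 0.5% limit. All 3 pooled curves fall across the member bins and are near their tumor level at 0.4% to 0.5%. The libraries are unevenly spread over the bins, and KO3 taken alone does not fall in this order.

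Of the 6 gate genes, Pdgfra, Col3a1 and Col1a2 were also well detected in tumor nuclei. Pdgfra, which encodes the PDGF receptor alpha (chromosome 5, 75152292 to 75198215 on the plus strand, GRCm38), was at 605, 817 and 709 CPM in the collagen-gated nuclei of CO and at 867, 444 and 642 CPM in those of KO. In tumor nuclei it was at 714, 786 and 1124 CPM in CO and at 941, 550 and 508 CPM in KO. Tumor nuclei were higher in 4 of 6 libraries, and the mean log2 ratio of collagen-gated over tumor nuclei was −0.16 ± 0.34 (SD, n = 6). Ratios were formed after adding 5 CPM, which understates them for low genes.

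Col3a1 encodes type III collagen (chromosome 1, 45311538 to 45349706, plus strand) and was at 425, 1641 and 1986 CPM in CO and 704, 846 and 1963 CPM in KO. Tumor nuclei held 424, 626 and 996 CPM in CO and 287, 476 and 293 CPM in KO. Collagen-gated nuclei were higher in 6 of 6 libraries, with a ratio near 1 in CO1. Col1a2, the second chain of type I collagen (chromosome 6, 4504814 to 4541544, plus strand), was at 252, 290 and 629 CPM in CO and 368, 747 and 889 CPM in KO. It lay between 107 and 186 CPM in tumor nuclei, and its mean log2 ratio was 1.63 ± 0.93 (SD, n = 6). Pdgfra and Col3a1 together supplied between 53.4% of the gate UMIs in KO2 and 83.5% in CO2, so most nuclei entered through genes that tumor nuclei also transcribe.

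The remaining gate genes were sparse. Col1a1, the first chain of type I collagen (chromosome 11, 94936224 to 94953042, plus strand), was at 29.2, 64.0 and 288 CPM in CO and 125, 211 and 272 CPM in KO, against 8.08 to 32.6 CPM in tumor nuclei. Dcn, which encodes decorin (chromosome 10, 97479609 to 97518143, plus strand), was at 49.1, 128 and 203 CPM in CO and 38.4, 148 and 296 CPM in KO, against 5.55 to 51.5 CPM in tumor nuclei. Both were higher than in the tumor nuclei of the same library in 6 of 6 libraries. Lum, which encodes lumican (chromosome 10, 97565128 to 97572703, plus strand), gave 12 UMIs in all members and none in CO1, where a count of 0 allows up to 4.60 CPM.

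Only 59 members (12.9%) held at least 2 UMIs of Dcn, Lum and Col1a1, and 338 (73.6%) held none. Members with at least 2 had Y-linked levels of 42.4, 68.1 and 637 CPM in CO and 296, 743 and 386 CPM in KO. Those with none had 13.0, 13.2 and 72.1 CPM in CO and 23.2, 59.97 and 120 CPM in KO. In each of the 6 libraries the first of these values was the higher one. The split was chosen after values were seen and depends on gate genes, so it was not tested, and 3 or 4 Y-linked UMIs stand behind the values of CO1, CO2 and KO1.

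Slc16a7, the gene deleted in the KO group (chromosome 10, 125219270 to 125389465, minus strand), was barely detected in the collagen-gated nuclei. They held 3, 0 and 4 UMIs in CO1 to CO3 and 2, 3 and 3 UMIs in KO1 to KO3, equal to 4.60, 0 and 18.9 CPM in CO and 4.80, 21.1 and 37.0 CPM in KO. A count of 0, as in CO2, allows up to 7.38 CPM. Macrophage-rule nuclei held 105, 104 and 196 CPM in CO and 154, 164 and 159 CPM in KO, and these values overlapped between the groups as well. The sources used here do not state which exons the loxP sites flank, and a 3′ tag outside the deleted part does not check the deletion. Slc16a7 did not pass the filter on low counts and was not tested.

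Genes outside the rule that stood highest over the tumor nuclei were led by Brinp3, Adamtsl1, Kcnma1, Tshz2, Svep1, Sulf1, Fndc1, Ppp1r15a, Chl1 and Bmpr1b, the 10 with the largest mean log2 ratio among 2573 genes with at least 100 CPM in members. The median of all 2573 was 0.02. Brinp3 (chromosome 1, 146494760 to 146902472, plus strand) was at 7.67, 19.7 and 511 CPM in CO and at 81.7, 458 and 1593 CPM in KO, and at 0.534 to 19.8 CPM in tumor nuclei. Its mean log2 ratio was 3.99. Single nuclei carried much of it, as 1 nucleus supplied 24.6% of the Brinp3 UMIs in KO2 and 100% in CO2.

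Kcnma1, a calcium-activated potassium channel, was at 6.14, 0 and 487 CPM in CO and at 9.61, 958 and 580 CPM in KO. Tshz2, a zinc finger transcription factor, was at 6.14, 91.1 and 596 CPM in CO and at 12.01, 536 and 1111 CPM in KO. Sulf1, which removes sulfate groups from heparan sulfate, was at 9.21, 36.9 and 487 CPM in CO and at 36.0, 317 and 370 CPM in KO. In all 3 genes, CO3, KO2 and KO3 were high and CO1, CO2 and KO1 low, the same libraries that were high and low for the Y-linked genes. Where the gene was detected, 1 nucleus supplied 24.3% to 75% of the UMIs of Kcnma1, 17.5% to 100% for Tshz2 and 17.5% to 66.7% for Sulf1. Svep1 (4.60 to 407 CPM) and Bmpr1b, a BMP receptor (0 to 288 CPM), had the same split into 3 higher and 3 lower libraries.

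Ppp1r15a, a stress-induced phosphatase subunit, differed from this pattern. It was at 109, 83.7 and 109 CPM in CO and 52.9, 486 and 37.0 CPM in KO, against 7.33 to 14.8 CPM in tumor nuclei. Of the 2573 genes, 115 were at least 2-fold higher by their mean and higher in 6 of 6 libraries, and 79 were at least 2-fold lower and lower in 6 of 6. The floor of 100 CPM in members leaves out genes that are low there. Over all 10337 genes with at least 10 CPM, 1253 (12.1%) were higher and 1427 (13.8%) lower in 6 of 6 libraries. The lower genes included Nav2 (mean log2 ratio −2.14), Ano3 (−2.14), Adgrl3 (−2.03) and Anks1b (−1.97), which are named as the largest decreases after values were seen.

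**Figure D4:**
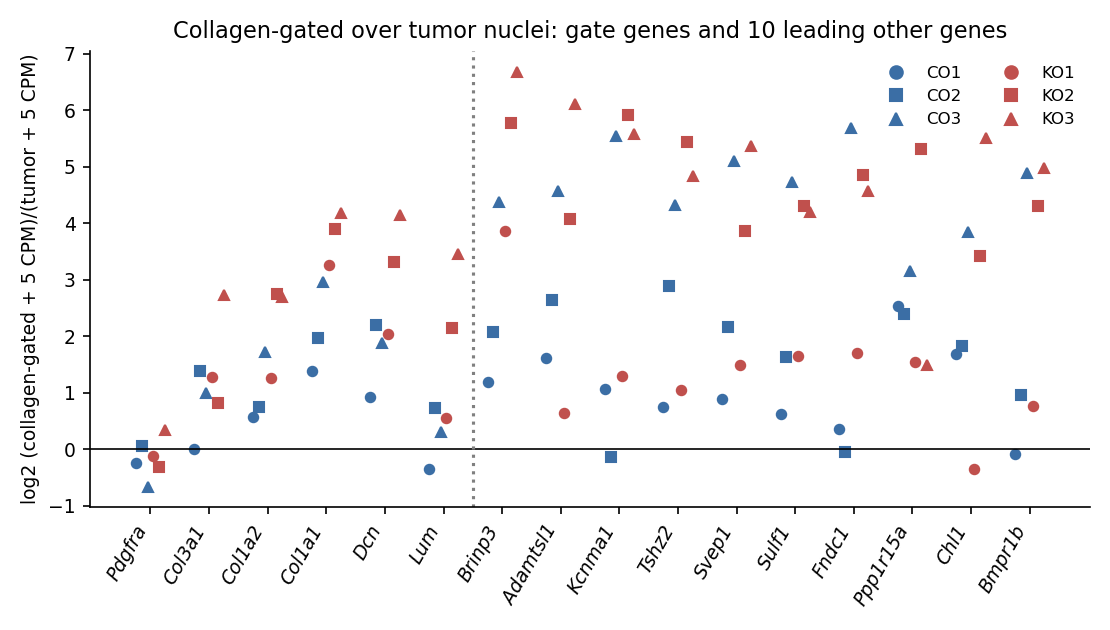
Log2 ratio of collagen-gated over tumor nuclei in each library for the 6 gate genes (left of the dotted line) and the 10 leading genes outside the rule. Pdgfra scatters around 0, and CO3, KO2 and KO3 lie above CO1, CO2 and KO1 for Brinp3, Kcnma1, Tshz2 and Sulf1.

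Matrix genes differed by family. Among 9 fibrillar collagens, 4 were higher in the collagen-gated nuclei in 6 of 6 libraries and the median log2 ratio was 1.2, beside a median of −0.01 for all 10337 genes above 10 CPM. Of those 4, the gate genes Col1a1, Col1a2 and Col3a1, whose levels the rule used, make up 3, and the other is Col5a3. Col5a2, a chain of type V collagen that joins type I fibrils, was at 121, 364 and 813 CPM in CO and at 163, 521 and 1198 CPM in KO, against 104 to 269 CPM in tumor nuclei. Col5a1, its partner chain, differed little, with a mean log2 ratio of 0.13 ± 0.27 (SD, n = 6). Among the other collagens the median was 0.35, and the basement membrane chains Col4a1 and Col4a2 had mean log2 ratios of −0.02 and −0.01.

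Of 32 matrix glycoproteins and proteoglycans above 10 CPM, 12 were higher in 6 of 6 libraries, beside 12.1% of all genes, with a median log2 ratio of 0.80. Fbn1, also in the list of resident fibroblast genes, was at 19.95, 73.8 and 312 CPM in CO and at 19.2, 261 and 790 CPM in KO, against 9.0 to 37.7 CPM in tumor nuclei. Fn1, fibronectin, was at 244 to 681 CPM in collagen-gated and 198 to 342 CPM in tumor nuclei. Tnc, tenascin C, was at 2274 CPM in CO3 and at 405 to 814 CPM in the other 5 libraries, and 1 nucleus supplied 26.4% of its UMIs in CO3. Its mean log2 ratio was −0.01 ± 0.92 (SD, n = 6).

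Regulators of the matrix were also divided. Timp1 and Timp2, inhibitors of matrix metalloproteinases, were higher in 6 of 6 libraries with mean log2 ratios of 0.83 ± 0.17 and 0.61 ± 0.18 (SD, n = 6). Adam12, a protease that the study names for fibroblasts, was at 7.67, 7.38 and 331 CPM in CO and 12.01, 317 and 333 CPM in KO, against 2.90 to 31.3 CPM in tumor nuclei. Serpinh1, the collagen chaperone, was higher in 6 of 6 libraries (0.71 ± 0.38), and Pcolce, which promotes procollagen cleavage, in 5 of 6 (0.39 ± 0.28). Among contractile genes, the median log2 ratio was 0.43, and Tpm1, a tropomyosin, was higher in 6 of 6 (0.43 ± 0.32).

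Signalling genes differed by list. The list of PDGF, FGF, IGF and HGF signalling had a median log2 ratio of 0.33, the TGF-beta and BMP list 0.19 and the Wnt list −0.08. In the first list 7 of 26 genes above 10 CPM were higher in 6 of 6 libraries and 2 were lower. In the TGF-beta and BMP list these counts were 3 and 1 of 22, and in the Wnt list 2 and 2 of 12. Of all genes, 12.1% were higher and 13.8% lower in 6 of 6. Ghr, the growth hormone receptor, and Igf1r, the IGF1 receptor, were lower in 6 of 6 libraries (−1.18 ± 0.53 and −0.47 ± 0.33), and Fgfr2 was higher in 6 of 6 (0.61 ± 0.45). Dkk2, a secreted Wnt modulator that the study names for fibroblasts, was lower in 6 of 6 libraries, at 89.8 to 275 CPM against 277 to 705 CPM in tumor nuclei. Pstpip2, also named by the study, was lower in 6 of 6, and Prkg1 was higher in 3 of 6. Ebf2 was higher in 5 of 6, at 12.3, 34.5 and 137 CPM in CO and 7.21, 35.2 and 272 CPM in KO. All 5 genes were chosen by the study on these libraries and are not independent evidence.

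Transcription factors of mesenchymal cells were mostly shared with the tumor nuclei. Tcf4 and Bnc2 were lower in 6 of 6 libraries (−0.64 ± 0.17 and −0.75 ± 0.32). Ebf1, a factor of stromal and B cells, was at 152, 310 and 1338 CPM in CO and at 315, 853 and 1642 CPM in KO, against 205 to 401 CPM in tumor nuclei. Hox genes, which record the position of a cell along the body, were detected in both classes. All 8 Hox genes detected in every member sum (Hoxa7, Hoxa9, Hoxb2, Hoxb3, Hoxb4, Hoxb6, Hoxb8 and Hoxb9, of 39 listed) were found in the tumor sums of every library. The tumor sums held 70724628 UMIs against 1908646 in the member sums, so this detection was nearly given beforehand and is no evidence of a shared position. Hoxb2 was higher in the collagen-gated nuclei in 6 of 6 libraries (0.94 ± 0.51), and Hoxb6 was lower in 6 of 6 (−0.85 ± 0.50).

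Immediate-early genes, which respond within minutes to stimulation or tissue handling, were the list with the largest median log2 ratio, 1.76 over 10 genes. The members with the lowest tumor gene share did not have this excess. Pooled over libraries, the 10 genes summed to 552 CPM in members under 0.05% and to 2583 CPM in those at 0.4% to 0.5%. In tumor nuclei they summed to 856 CPM. Libraries differed in this contrast. At 0.4% to 0.5% the members of KO1 (934 CPM) and KO3 (507 CPM) were below the tumor nuclei of their library (1014 and 573 CPM), and those of the other libraries were above. Under 0.05% the members of CO2 (1410 CPM) were above its tumor nuclei (1276 CPM), and those of the other libraries were below. Jun was at 1817, 1314 and 1135 CPM in CO and at 394, 2241 and 98.8 CPM in KO, against 84.8 to 405 CPM in tumor nuclei. Egr1 was at 178 to 485 CPM in CO1, CO2, CO3 and KO1 but at 3594 CPM in KO2 and 111 CPM in KO3. Junb and Ier2 were higher in 6 of 6 libraries. The chemokine genes Cxcl10 and Ccl2, in the list of inflammatory fibroblast genes, had mean log2 ratios of 1.42 ± 1.61 and 0.65 ± 0.27 (SD, n = 6).

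Genes of other cell types were present in some libraries. The 15 macrophage genes summed to 196, 261 and 1045 CPM in the collagen-gated nuclei of CO and to 526, 218 and 1877 CPM in those of KO, against 5703 to 6722 CPM in macrophage-rule nuclei. T and NK cell genes were at 482 CPM in CO3 and 506 CPM in KO3 and at 7.38 to 42.3 CPM in the other 4 libraries. Skeletal muscle genes were at 775 CPM in CO3, 222 CPM in KO3 and 12.3 to 63.4 CPM elsewhere. Ttn, the muscle protein titin, was found in 2 of the 49 members under 0.05%, both in CO3. Mural genes stayed at or under 175 CPM, endothelial genes at or under 234 CPM, and Krt5, Krt14 and Sox10 gave no UMI. CO3 and KO3 were thus high both for Y-linked genes and for genes of other host cell types, and the part of those cells in the results was not tested.

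The second question was whether the share of collagen-gated nuclei differed between KO and CO tumors. They made up 3.24%, 2.90% and 4.75% of kept nuclei in CO1 to CO3 and 2.39%, 1.52% and 1.29% in KO1 to KO3. Wilson 95% intervals, which cover counting error only, ran from 2.36% to 5.83% over the CO libraries and from 0.960% to 2.86% over the KO libraries. All 3 CO libraries lay above all 3 KO libraries. The mean was 3.63% ± 0.98 (SD, n = 3) in CO and 1.73% ± 0.58 (SD, n = 3) in KO, and a two-sided exact permutation test gave p = 0.1, the smallest that 3 against 3 libraries allow. The difference could therefore not pass a threshold of 0.05. Most members did not carry the marks of a host cell, so this is not a share of host fibroblasts. Gate-passing nuclei were most numerous at a tumor gene share of 1.0% to 1.1% in CO1 and CO2 and 1.5% to 1.6% in CO3. In KO1 to KO3 this was at 0.9% to 1.0%, 1.9% to 2.0% and 1.6% to 1.7%. The part of this position in the share of members was not tested.

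The mean was lower in KO under every definition run, and whether the groups overlapped depended on how a member was counted. With each nucleus thinned to 500 UMIs before the gate, the shares were 0.852%, 1.001% and 2.46% in CO and 0.628%, 0.657% and 0.526% in KO, which do not overlap (exact permutation p = 0.1). The groups also stayed apart with a gate of 5 counts, with 3 counts in each of 2 gate genes and with doublets removed (exact permutation p = 0.1 each). As a percent of non-tumor nuclei the shares were 7.98%, 5.91% and 9.67% in CO and 5.32%, 7.35% and 2.57% in KO, which overlap (exact permutation p = 0.2). Among nuclei with at least 500 genes and under 5% mitochondrial counts, they were 1.17%, 1.11% and 4.18% in CO and 0.505%, 1.56% and 1.31% in KO (exact permutation p = 0.6). Members with at least 2 UMIs of Dcn, Lum and Col1a1, whose Y-linked level was higher, made up 0.328%, 0.501% and 0.726% of kept nuclei in CO and 0.126%, 0.404% and 0.205% in KO (exact permutation p = 0.2). With a tumor gene share under 0.25%, the shares were 0.623%, 0.868% and 3.58% in CO and 0.817%, 0.455% and 0.614% in KO (exact permutation p = 0.2). Under 0.05% they were 0.0983%, 0.234% and 1.34% in CO and 0.188%, 0.152% and 0.0877% in KO (exact permutation p = 0.4). In both, CO3 was far above every other library and KO1 lay above CO1.

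**Figure D5:**
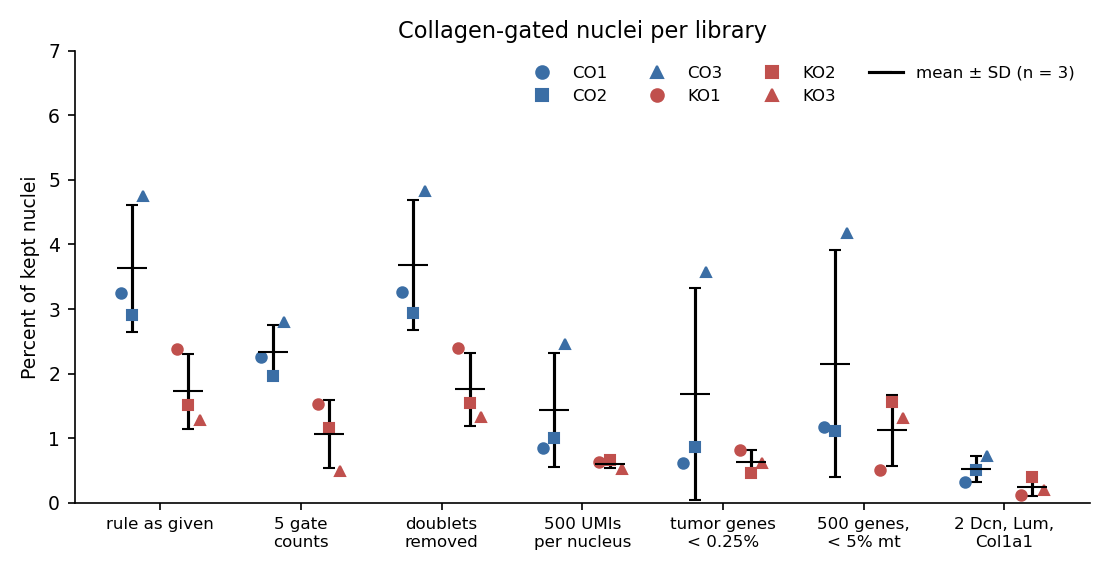
Collagen-gated nuclei as a percent of kept nuclei in each CO and KO library under the rule as given and under 6 other definitions, with mean ± SD (n = 3). CO and KO do not overlap under the rule as given (2.90 to 4.75% against 1.29 to 2.39%), and they overlap under the stricter tumor gene limit, the stricter quality filter and the Dcn, Lum and Col1a1 count.

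The third question was whether genes changed in these nuclei between KO and CO. Counts summed per library were compared with edgeR's quasi-likelihood test, and a gene was called at a log2 fold change of at least 0.58 in size and a Benjamini-Hochberg adjusted p of at most 0.05. None of 6696 genes was called, which is 0%, by edgeR or by DESeq2. A fit with the replicate number as a block called 7 genes (0.105%). The labels do not say whether the numbers pair the libraries. At an unadjusted p under 0.05 there were 187 genes, and the smallest adjusted p of the edgeR test was 0.904. The values of KO and CO did not overlap for 644 genes, 9.62% of those tested. The biological coefficient of variation was 37.2%.

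The 5 genes with the smallest unadjusted p in each direction missed the threshold, and only with the replicate number as a block did 3 of them pass (edgeR adjusted p of 0.0118 for Naaladl2, 0.0312 for Csrp2 and 0.0105 for Ifit3). Nxpe4 was at 34.9, 32.4 and 30.4 normalized CPM in CO and at 106, 83.7 and 131 in KO (log2 fold change 1.67 ± 0.37, SE). The groups did not overlap, and its adjusted p in edgeR was 0.904. Vgll3, a transcriptional cofactor, was at 26.2, 24.3 and 50.6 normalized CPM in CO and 66.6, 152 and 158 in KO (1.88 ± 0.49, SE). Meis1, a homeobox factor that partners Hox proteins, was at 201, 227 and 248 normalized CPM in CO and 370, 495 and 538 in KO (1.05 ± 0.32, SE). Naaladl2 and Adamts5, a protease that cleaves aggrecan, had log2 fold changes of 2.49 and 2.83, and their groups overlapped. Adamts5 fell to 1.28 without KO3, which held 35 of its UMIs.

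On the lower side, Nupr1, a stress-induced chromatin protein, was at 38.4, 83.8 and 86.0 normalized CPM in CO and 13.3, 7.61 and 13.1 in KO, which rests on 5, 1 and 1 UMIs in KO. Csrp2, a LIM domain protein, was at 297, 265 and 162 normalized CPM in CO and 95.8, 45.7 and 26.3 in KO (−1.93 ± 0.47, SE). Crabp1, a retinoic acid binding protein that also stands in the list of tumor line genes, was at 328, 186 and 228 normalized CPM in CO and 117, 60.9 and 39.4 in KO (−1.64 ± 0.44, SE). Ifit3, an interferon-induced gene, and Acot7 had log2 fold changes of −2.95 and −1.61, and Ifit3 moved to −1.79 without CO2. In each of these genes every KO library was below every CO library, a pattern that 9.62% of all tested genes had in 1 direction or the other.

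No gene of any list was called, and no list was tested as a whole. Among gate genes, Pdgfra had a KO over CO log2 fold change of −0.14 ± 0.38 (SE), Col1a2 one of 0.75 ± 0.47 (SE) and Col3a1 one of −0.23 ± 0.60 (SE). Dcn was at 0.22 and Col1a1 at 0.70, and Lum did not pass the filter on low counts. Of the genes that the study names for fibroblasts, Adam12 (0.97), Ebf2 (0.54) and Prkg1 (0.73) had positive and Dkk2 (−0.50) had negative values, none called, and Pstpip2 was not tested. Single libraries moved these values, since without CO3 that of Adam12 was 4.60 and that of Prkg1 3.31, while without CO1 they were 0.34 and 0.12. Those of Col1a1 and Col1a2 were 2.03 and 1.22 without CO3, and that of Dkk2 was −1.08 without KO1 and −0.17 without CO1. Of all 6696 genes tested, 52.0% had a positive value and the median was 0.03. Of 8 fibrillar collagens tested, 5 had a positive value and the median was 0.34. Of 21 mesenchymal transcription factors tested, 17 had a positive value and the median was 0.46. The 2 Y-linked genes tested, Eif2s3y (1.99) and Uty (0.25), were positive as well. The part of the Y-linked level in these values was not tested.

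Of the 15 macrophage genes listed, 5 were tested. All 5 had a positive value, beside 52.0% of all genes tested, with a median of 0.68, none called. Single libraries stood out. Ptprc was at 704 CPM in KO3, 36.0 CPM in KO1 and 42.3 CPM in KO2, and at 15.3, 22.1 and 345 CPM in CO. Dock2 was at 531 CPM in KO3 and at 4.60 to 227 CPM elsewhere. Lyz2 was at 180 CPM in KO1 and at 14.1 to 118 CPM elsewhere.

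All 16 genes of lactate transport and glycolysis that were tested had a negative log2 fold change, beside 48.0% of all genes tested. Their median was −0.63, and none passed the threshold or an unadjusted p under 0.05. In tumor nuclei of the same libraries 14 of these 16 were negative as well, with a median of −0.21. Pkm, pyruvate kinase, was at 1561, 923 and 634 CPM in CO and at 1086, 254 and 370 CPM in KO. Ldha, the lactate dehydrogenase subunit that favors lactate formation, was at 807, 536 and 184 CPM in CO and at 500, 120 and 173 CPM in KO. Bsg, the chaperone of monocarboxylate transporters, was at 1202, 984 and 686 CPM in CO and at 1264, 197 and 321 CPM in KO. KO1 lay within or above the CO range for all 3 genes, and the groups overlapped. The sum of the 22 listed genes was 7793, 5256 and 3182 CPM in CO and 6037, 1430 and 2543 CPM in KO. It was higher in the 3 libraries with the higher mitochondrial share, and the part of that share in the result was not tested. Without KO1 the median was −1.37, and without CO1 it was −0.25.

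Whether the KO against CO change differed between collagen-gated and tumor nuclei was asked with an interaction term, keeping each library as a block. No gene of 12303 was called, which is 0%, against 1 gene with DESeq2. In the edgeR test 282 genes had an unadjusted p under 0.05, and the lowest adjusted p was 0.0577, for Brinp3, whose log2 fold change was higher in the collagen-gated than in the tumor nuclei by 2.34 ± 0.36 (SE). Brinp3 is also the gene that stood highest over the tumor nuclei, and its level followed the Y-linked level of the libraries. The part of the Y-linked level in this difference was not tested.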

How the data were processed

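Nuclei of frozen tumors were sequenced with droplet-based 3′ chemistry, and some samples had extra washes. The authors counted UMIs with Cell Ranger (3.0.2 in their processing notes, 3.1.0 in the file headers) against GRCm38. The deposited values are raw counts per gene and nucleus. All were whole, which leaves no trace of the free-RNA correction in the methods, and counting of introns is not given in the sources used here. Xist was not analysed here. Members, gene lists and alternatives were chosen with earlier results of these data known.

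Raw counts were summed per library over members and over tumor nuclei. Levels are CPM of those sums. Named genes were Slc16a7, the gate genes, up to 4 members of each of 28 lists with the highest level, all Y-linked genes, Hox genes detected in every member sum, 5 genes of the study, the 10 leading genes over tumor nuclei and, with fewer than 5 genes called, the 5 each way with the smallest p. KO and CO were compared with edgeR 4.0.16 (R 4.3.3), TMM scaling and the default low-count filter; DESeq2 1.42.0 was an alternative. Shares were compared by exact permutation (SciPy 1.17.1). No test compared members with tumor nuclei in level, because the rule separates them. Coordinates are from GENCODE vM21. Doublets were kept, and removed as an alternative. Replicates within groups differed beyond counting noise. Simulated data tested the gene models.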

Additional observations from a re-analysis of the deposited data

How the results depend on the processing

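The share of collagen-gated nuclei was lower in KO than in CO by group mean under every alternative run, by 1.90 percentage points under the rule as given and by 1.34 to 2.27 points when 1 library was left out. A replicate block, with libraries paired by number, gave the same mean difference and an exact sign-flip p of 0.25, the smallest it allows. Correlations of the members' deviations from their group means were 0.56, −0.11 and 0.39 for numbers 1, 2 and 3. CO1 correlated best with KO1 and CO3 with KO3, but CO2 correlated best with KO1 (0.28). Whether the numbers pair the libraries was therefore not settled. With the block as a term, edgeR called 7 genes between KO and CO (5 higher, 2 lower) against none without it. Without a low-count filter it called 3 genes, and leaving out 1 library gave 0 to 2, the 2 (Adgrb3 and Tll1) without KO1. For the difference between collagen-gated and tumor nuclei, 0 genes became 1 with a gate of 5 counts, 10 with 3 counts in each of 2 gate genes, 34 with a tumor gene share under 0.25%, 1 with DESeq2, 12 without the low-count filter, and 0 to 3 when 1 library was left out (3 without CO3, 1 without KO2). Of the limits added after the data were seen, a tumor gene share under 0.05% gave 2 and at least 2 counts in Dcn, Lum and Col1a1 gave 3. The cause was not tested.

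The mean Y-linked level of the members was 102 CPM and rose to 235 with a tumor gene share under 0.25%, 436 under 0.05% and 362 with at least 2 counts in Dcn, Lum and Col1a1. Leaving out 1 library gave 80.7 to 120 CPM. The ratio of Pdgfra to tumor nuclei turned positive with 3 counts in each of 2 gate genes (0.14) and with nuclei thinned to 500 UMIs (0.17). The KO against CO value turned sign for Dcn with the stricter quality filter (−0.11) and for Col3a1 with a tumor gene share under 0.25% (0.26) or 0.05% (0.68) and with 2 counts in Dcn, Lum and Col1a1 (0.091). It also turned sign with the stricter quality filter for Adam12 (−0.10), Ebf2 (−0.59) and Prkg1 (−0.43). Leaving out 1 library gave −0.48 to 0.072 for Pdgfra (positive without KO2), −0.55 to 0.76 for Dcn (negative without CO1 or KO3), −0.81 to 0.12 for Col3a1 (positive without CO3) and −1.71 to 1.73 for Ebf2 (negative without KO3). Depth limits these comparisons, since the smallest sum held 80998 UMIs and only 49 to 792 genes could be tested under the tumor gene share limit of 0.05% and with thinned nuclei.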
